A study of Mus musculus with 6 samples.

Results

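Lymphoid cells are specified by a small set of DNA-binding proteins, and 10 genes for such proteins are described here in mouse leukaemia cells of a myeloid type. The 10 are genes known for their place in lymphoid development: the Ikaros zinc finger genes Ikzf1, Ikzf2 and Ikzf3, the chromatin organiser Satb1, the zinc finger genes Bcl11a and Bcl11b, the TCF-LEF genes Tcf7 and Lef1, and the B-lineage genes Ebf1 and Pax5. They were chosen with earlier results of these data known. All 10 are among the 24015 genes counted in the series.

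The study asked what NF-kB-inducing kinase (NIK, encoded by Map3k14) does in acute myeloid leukaemia cells when it is switched on. Leukaemia was made with the MLL-AF9 fusion oncogene in lineage-negative, cKit+ bone marrow progenitors of mice called NIKERT2. These carry a NIK transgene behind a loxP-flanked stop at the Rosa locus and a tamoxifen-activated Cre, CreERT2, also at Rosa. The cells sequenced are called LSPC, leukaemia stem and progenitor cells. In the 3 libraries labelled LSPC, called untreated here, the cells carried MLL-AF9 and the same alleles and had no tamoxifen, and in the 3 labelled LSPCT they carried the same and had been given tamoxifen. Tamoxifen, active Cre and the NIK transgene therefore came together, and their parts cannot be told apart. Rosa drives expression in most cell types, so the transgene was not tied to a lineage. The sources used here give neither the ages of the mice, nor the gates of any sort, nor whether the replicates came from separate mice. A p-value therefore sets the difference between the groups against the spread among these libraries, and that spread may be technical.

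Each library held between 19999071 and 26773176 counts on genes. Map3k14 itself stood at 24.2 to 28.8 CPM (counts scaled to a common library size of 1000000) in the untreated libraries and at 130 to 191 CPM in the tamoxifen libraries, with no overlap. Of the 12729 genes with enough counts to be tested, 2189 (17.2%) passed edgeR's quasi-likelihood test at a Benjamini-Hochberg adjusted p under 0.05, 1140 (8.96%) of them higher and 1049 (8.24%) lower with tamoxifen. Tamoxifen replicate 1 stood apart from the other two: 799 of those genes (6.28%) were at least 2-fold higher in it than in the mean of tamoxifen replicates 2 and 3, and 477 (3.75%) were at least 2-fold lower. Where a call on the 10 genes, or a list's count by more than 1.5 times, changed without it, the value without it is given. The progenitor markers Kit and Cd34 were present in every library, Kit at 117 to 194 CPM and Cd34 at 150 to 264 CPM. They belong to a list of 12 leukaemia stem and progenitor markers, of which 1 rose and 5 fell with tamoxifen. The summed level of that list was 10068 to 12318 CPM untreated and 3502 to 5507 CPM with tamoxifen. The presence of Kit and Cd34 therefore does not settle the cell type.

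Ikaros, the product of Ikzf1, works from the earliest lymphoid progenitors onward and pairs with its relatives Helios (Ikzf2) and Aiolos (Ikzf3), often together with the NuRD chromatin remodelling complex. TCF-1 (Tcf7), acting downstream of Notch, and BCL11B (Bcl11b) set and then lock in the T-cell programme, with LEF-1 (Lef1) as a close relative of TCF-1 that also binds beta-catenin. EBF1 and PAX5 establish the B-cell programme, BCL11A (Bcl11a) is needed for early B cells, and SATB1 folds chromatin in thymocytes and is also found in blood stem cells.

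Of these genes 5 rose with tamoxifen and none fell, also at an unadjusted edgeR p under 0.05: Satb1, Tcf7, Bcl11b, Ikzf3 and Bcl11a. In numbers, 8 of the 10 had enough counts to be tested, 5 of these 8 rose, where 8.96% of all tested genes rose, and 3 (Ikzf1, Ikzf2 and Lef1) did not pass. The same 5 were the ones whose untreated and tamoxifen libraries did not overlap, all 5 with tamoxifen higher. Over all tested genes 4795 (37.7%) did not overlap, and 2300 (18.1%) did so with tamoxifen higher. The median log2 fold change was 1.09 over the 8 tested genes and 0.00 over all tested genes. As the 10 genes were chosen with earlier results of these data known, these shares and medians are a description and no test. The rise was large and steady in Satb1, and in the other 4 it was smaller or rested in part on single libraries. These RNAs come from whole cell samples, in which more or fewer cells of a type and more or less RNA per cell cannot be told apart.

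**Figure D1:**
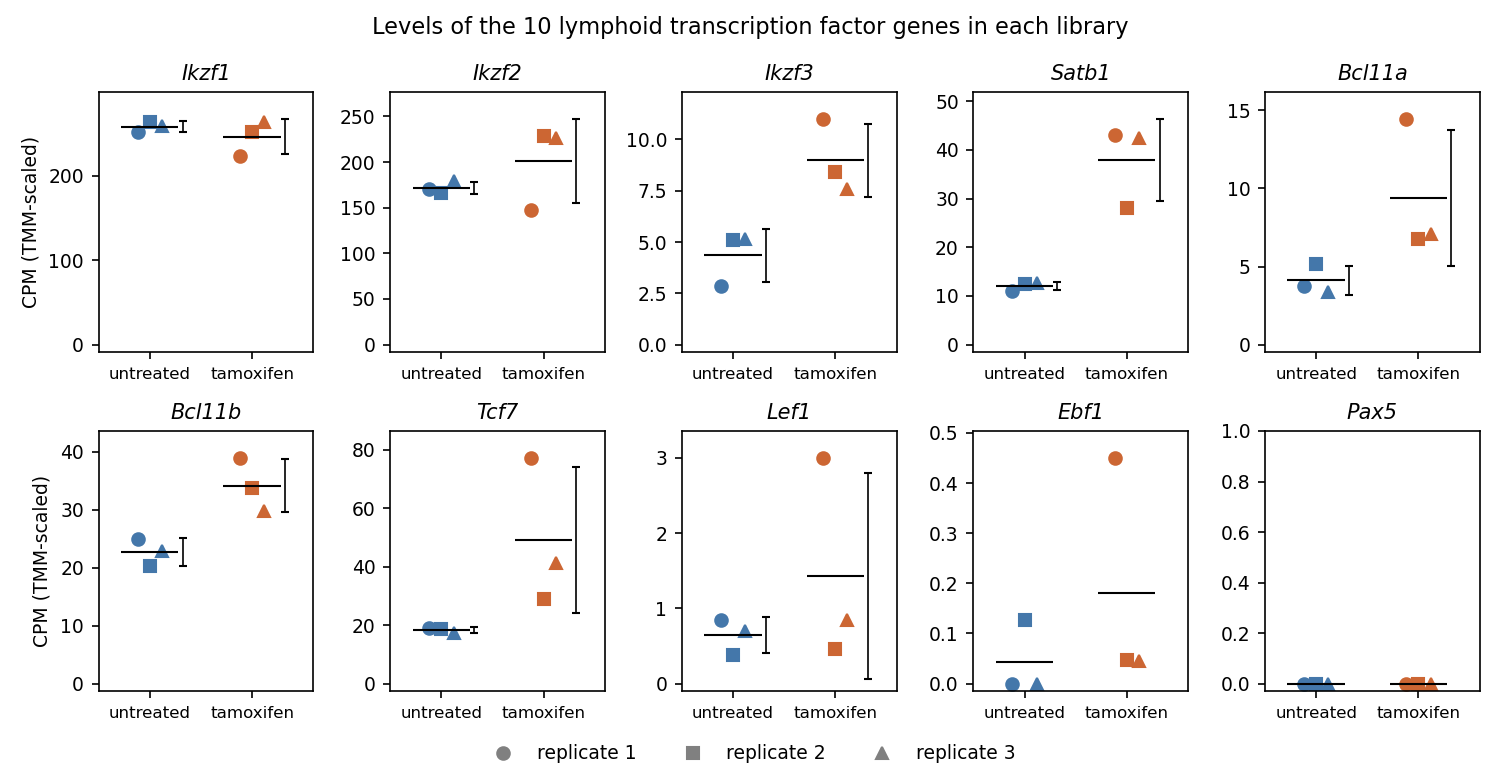
Normalised level (CPM, each panel with its own axis from 0) of the 10 genes in the 3 untreated and 3 tamoxifen libraries; points are libraries, and bars mark the mean and SD where drawn. Satb1, Tcf7, Bcl11b, Ikzf3 and Bcl11a do not overlap between the groups, and Pax5 is at 0 throughout.

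Satb1 changed most clearly. It stood at 11.1, 12.5 and 12.5 CPM in untreated replicates 1 to 3 and at 43.0, 28.1 and 42.5 CPM in tamoxifen replicates 1 to 3. Every tamoxifen library was more than double the highest untreated one. The mean went from 12.0 ± 0.821 to 37.9 ± 8.44 CPM (SD, n = 3 libraries each), a rise of 1.65 on the log2 scale (SE 0.18), or 3.15-fold, with an edgeR adjusted p of 0.000733. The call held in each of the 15 other ways of fitting that were run, with log2 fold changes of 1.56 to 1.83, including a test that required a change of more than 1.5-fold (adjusted p = 0.0031).

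The upstream sequence of Satb1 is shown because NIK acts through NF-kB factors and Satb1 is the gene of the 10 that changed most clearly. RefSeq windows of 250 bases before an annotated start (build GRCm38.p6, mouse chromosome 17, minus strand) were searched on both strands for the kB consensus, with matches in capitals. The first window, upstream of one Satb1 start, holds a match from 135 to 126 bases before that start. Beneath it are 26 bases around the match in the window of a second Satb1 start, which overlaps an annotated Satb1 exon.
Satb1, chr17:51833291-51833540: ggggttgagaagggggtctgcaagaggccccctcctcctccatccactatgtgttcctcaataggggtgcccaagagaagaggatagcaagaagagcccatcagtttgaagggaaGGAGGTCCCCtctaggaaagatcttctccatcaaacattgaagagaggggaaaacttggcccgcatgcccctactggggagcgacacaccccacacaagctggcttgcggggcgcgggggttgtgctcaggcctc
Satb1, chr17:51832806-51832831: ctctcgtgGGGGCGCCCCgatcgccc

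Windows were found for 8 of the 10 genes, all but Ikzf2 and Ikzf3, and numbered 18 in all, since several genes have more than 1 start. The kB consensus matched in 3 of the 18, namely 2 of the 5 Satb1 windows and the 1 Bcl11a window. Over all 32851 RefSeq windows it matched in 7.25%. The Bcl11a window (chromosome 11, plus strand) overlaps an annotated Bcl11a exon and holds 3 overlapping or neighbouring matches, within these stretches:
Bcl11a, chr11:24080578-24080603: cacacttcGGGAGCTCCCCcgccctg
Bcl11a, chr11:24080605-24080630: cacgttgcGGGGCCCTCCctctcccc

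Neither of 2 motifs for proteins of these families was in any of the 18 windows: CTTTGAT, bound by TCF-LEF proteins, is in 3.21% of all windows, and the palindrome bound by EBF proteins (TCCC, any 2 bases, GGGA) is in 0.779%. The Ikaros core TGGGAA was in 3 of the 18 windows, with 21.6% over all windows. The searches covered both strands. A match describes letters in a window and is no evidence of binding, and the genome searched is a later build than the mm9 named for the counts.

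Tcf7 had the second largest rise among the genes with more than 10 CPM. It stood at 18.99, 18.9 and 17.2 CPM in the untreated libraries and at 77.2, 28.97 and 41.2 CPM in tamoxifen replicates 1, 2 and 3. The untreated libraries lay close together and all 3 tamoxifen libraries were above them, replicate 1 far more than the others. The mean went from 18.3 ± 1.03 to 49.1 ± 25.1 CPM (SD, n = 3), a log2 change of 1.42 (SE 0.32) with an edgeR adjusted p of 0.0184. Without tamoxifen replicate 1 the log2 change was 0.94, and it still passed (adjusted p = 0.0036). Without untreated replicate 1, 2 or 3 the adjusted p was 0.0698, 0.0608 and 0.0541, and the call was lost each time.

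Its relative Lef1 was scarce. Lef1 stood at 0.845, 0.381 and 0.705 CPM in the untreated libraries and at 2.999, 0.464 and 0.841 CPM in tamoxifen replicates 1, 2 and 3, which rests on 9 to 60 counts a library. Tamoxifen replicate 1 was high and the other 5 libraries overlapped. The log2 change was 1.15 (SE 0.71) with an edgeR adjusted p of 0.311, which did not pass. It dropped to 0.03 (adjusted p = 0.973) once that library was left out. The log2 ratio of Tcf7 to Lef1, computed with 0.5 CPM added to both, was 4.06 ± 0.342 untreated and 4.79 ± 0.273 with tamoxifen (SD, n = 3). That difference of 0.73 had an exact two-sided permutation p of 0.1, the smallest that 3 against 3 libraries allow (0.2 adjusted over the 4 pairs of relatives compared). Lef1 was at 0.381 to 0.845 CPM in every library but tamoxifen replicate 1. The 0.5 CPM added is close to that level, so it weighs heavily in this ratio.

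Bcl11b, which in normal development marks commitment to the T lineage, rose modestly. Its levels were 24.96, 20.3 and 22.8 CPM untreated and 38.9, 33.7 and 29.8 CPM with tamoxifen. The lowest tamoxifen library lay above the highest untreated one by less than 5 CPM. The mean went from 22.7 ± 2.35 to 34.1 ± 4.55 CPM (SD, n = 3), a log2 change of 0.59 (SE 0.13) with an edgeR adjusted p of 0.0197. The adjusted p rose to 0.0785 without untreated replicate 2, to 0.0558 without untreated replicate 3 and to 0.0538 without tamoxifen replicate 2, which ended the call.

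Bcl11a was low in all libraries. It stood at 3.78, 5.17 and 3.38 CPM untreated and at 14.4, 6.73 and 7.08 CPM with tamoxifen. Tamoxifen replicate 1 was about double the other two, which were themselves above every untreated library. The log2 change was 1.19 (SE 0.35), just past the threshold with an edgeR adjusted p of 0.0494. Leaving out any 1 of the 6 libraries ended the call (adjusted p from 0.0503 to 0.162), and without tamoxifen replicate 1 the log2 change was 0.75 (adjusted p = 0.0596). The log2 ratio of Bcl11a to Bcl11b differed by 0.47 between the groups (exact two-sided permutation p = 0.3, adjusted 0.3).

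Among the Ikaros genes, Ikzf1 was the most abundant and did not pass the test. It stood at 251.8, 264.5 and 259.0 CPM untreated and at 223.5, 252.4 and 264.0 CPM with tamoxifen. The groups overlapped, and tamoxifen replicate 1 was the lowest of all 6. The log2 change was -0.07 (SE 0.09) with an edgeR adjusted p of 0.647. Leaving out tamoxifen replicate 1 brought it to 0.0038.

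Ikzf2, for Helios, stood at 170.2, 165.6 and 179.1 CPM untreated and at 147.6, 228.8 and 226.4 CPM with tamoxifen. Here tamoxifen replicate 1 lay below all untreated libraries and the other two lay above them. The log2 change over all libraries was 0.23 (SE 0.16), with an edgeR adjusted p of 0.380 that did not pass. Without tamoxifen replicate 1 it was 0.41 with an adjusted p of 0.0077, so that library decided the call.

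Ikzf3, for Aiolos, was far scarcer and rose. Its levels were 2.83, 5.09 and 5.12 CPM untreated and 11.0, 8.40 and 7.57 CPM with tamoxifen. No tamoxifen library reached down to the untreated range. The mean went from 4.35 ± 1.31 to 8.99 ± 1.79 CPM (SD, n = 3), a log2 change of 1.04 (SE 0.29, edgeR adjusted p = 0.0413). Leaving out any 1 of the 6 libraries ended the call, with adjusted p from 0.0566 to 0.118 and log2 changes from 0.82 to 1.18. The log2 ratio of Ikzf3 to Ikzf1 was higher with tamoxifen by 1.06 (exact two-sided permutation p = 0.1, adjusted 0.2), and that of Ikzf2 to Ikzf1 by 0.27 (p = 0.3, adjusted 0.3).

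The B-lineage factors were close to absent. Ebf1 had 0, 3 and 0 counts in the untreated libraries and 9, 1 and 1 in tamoxifen replicates 1, 2 and 3, too few to be tested. Of the 11 tamoxifen counts, 9 came from replicate 1. Summed over each group, the tamoxifen level was 4.04 times the untreated one, with an exact 95% interval of 1.07 to 22.5 that covers counting error only. Pax5 had no count in any library, which allows up to 0.0425 CPM in the untreated group and 0.0468 CPM in the tamoxifen group (3 counts over the group's libraries).

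**Figure D2:**
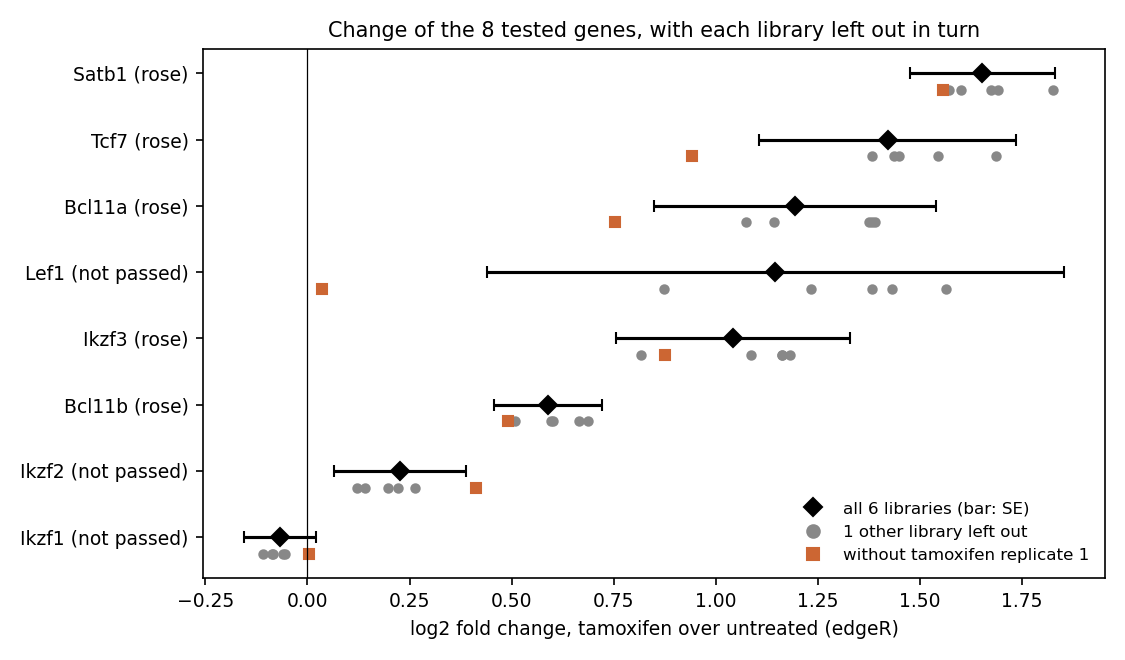
Log2 fold change, tamoxifen against untreated, of the 8 tested genes, for all 6 libraries (diamonds, bars of 1 SE) and with each library left out in turn (circles, squares for tamoxifen replicate 1). Satb1 stays between 1.56 and 1.83 in every fit, whereas Lef1 falls to 0.03 and Tcf7 to 0.94 without tamoxifen replicate 1.

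Levels of different genes were compared per length, as CPM per kilobase of GENCODE M21 exon, which is not the annotation the counts were made on. Untreated, Ikzf1 led at 44.7 ± 1.10 and Ikzf2 followed at 17.9 ± 0.714 (SD, n = 3), then Tcf7 at 6.98 ± 0.391 and Bcl11b at 2.80 ± 0.290. Ikzf3 (1.19 ± 0.359) and Satb1 (0.992 ± 0.068) were next, and their libraries overlapped. Bcl11a (0.541 ± 0.124) and Lef1 (0.184 ± 0.068) came below them.

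With tamoxifen the per-length order was the same at the top, with Ikzf1 at 42.7 ± 3.62, Ikzf2 at 20.9 ± 4.82 and Tcf7 at 18.7 ± 9.56 (SD, n = 3). The libraries of Ikzf2 and Tcf7 overlapped there, unlike in the untreated group. Satb1, at 3.12 ± 0.696, was above Ikzf3, at 2.46 ± 0.489, again with overlap. GENCODE places opposite-strand genes over exons of Ikzf2, Satb1, Bcl11a, Lef1 and Pax5, and since no strand setting is given for the counting, reads of opposite strands cannot be told apart there. It also places Gm36931, which is not among the genes counted, over Satb1 exons on the same strand. Reads of Gm36931 and Satb1 cannot be told apart where they overlap.

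How the 10 genes varied within the tamoxifen group was uneven. Tamoxifen replicate 1 was the highest of the 3 tamoxifen libraries for 6 of the 8 tested genes, compared with 39.0% of all tested genes, and the lowest for Ikzf1 and Ikzf2. The level in replicate 1 divided by the mean of the other two was 4.60 for Lef1, 2.20 for Tcf7, 2.09 for Bcl11a, 1.38 for Ikzf3, 1.22 for both Satb1 and Bcl11b, 0.865 for Ikzf1 and 0.648 for Ikzf2. The summed levels of the T-lineage and macrophage lists described further on were also highest there. So were those of other lists, among them the B-lineage, natural killer, plasmacytoid dendritic and leukaemia stem and progenitor lists. Those of the early lymphoid progenitor, Notch, Wnt target and TCF-LEF partner lists were not. The part of any of these lists in these values was not tested.

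**Figure D3:**
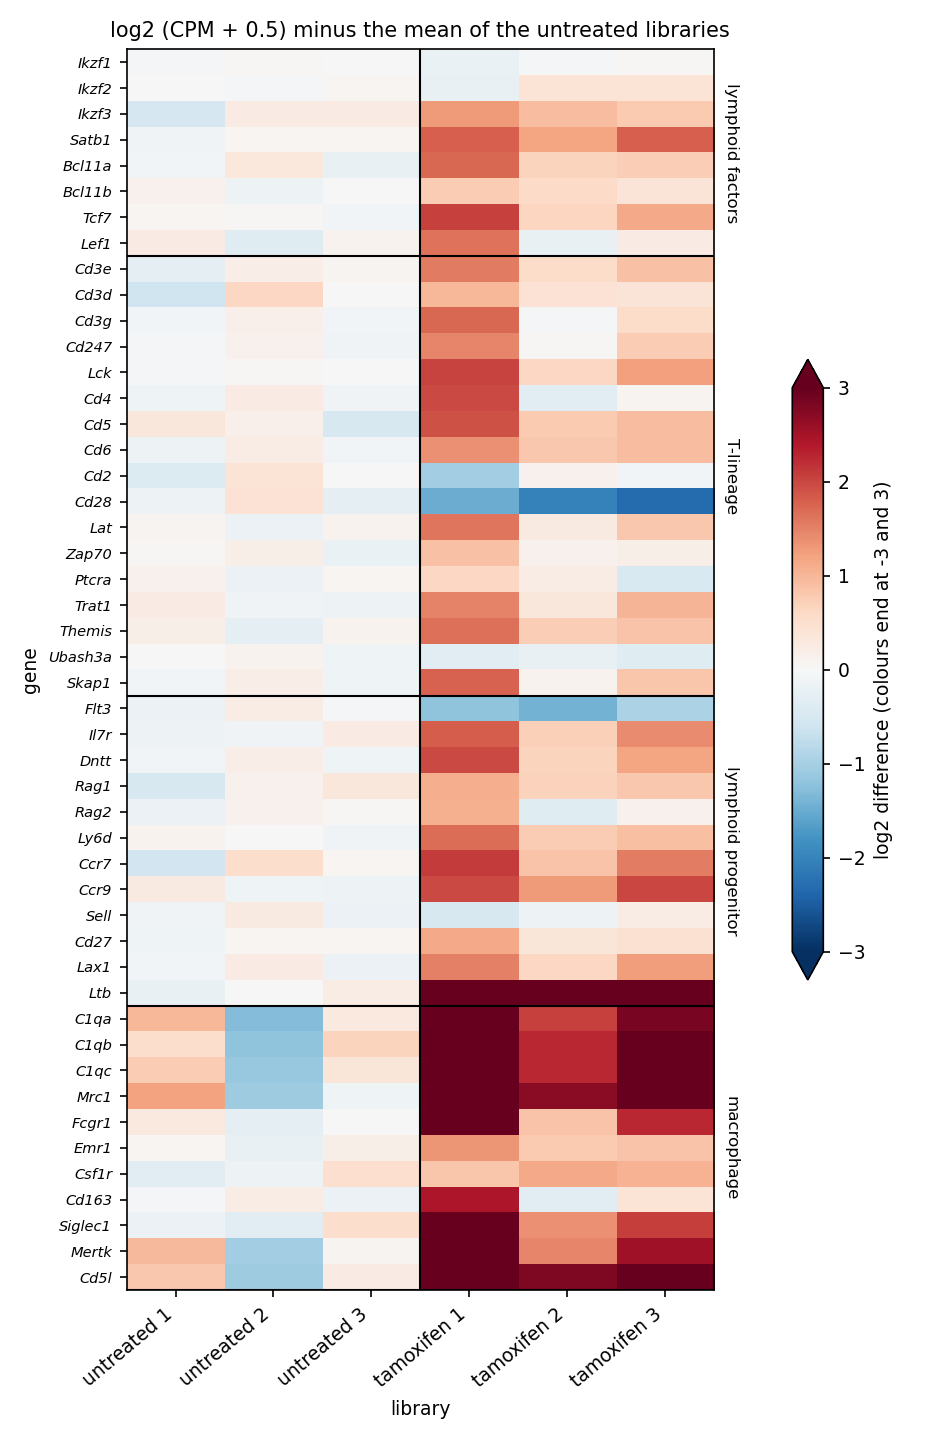
Colour gives log2 (CPM + 0.5) of tested genes (rows) in each of the 6 libraries (columns), minus its mean over the untreated libraries, for the lymphoid factors and genes of the T-lineage, lymphoid progenitor and macrophage lists. Among the tamoxifen libraries, tamoxifen replicate 1 is the highest library for Satb1, Tcf7, Bcl11b, Bcl11a, Ikzf3 and Lef1 and the lowest for Ikzf1 and Ikzf2.

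The genes with the most similar pattern over the 6 libraries were found by the root mean square difference of centred log2 CPM among 11043 genes, which describes likeness and nothing more. For Tcf7 they were Il2ra, the interleukin-2 receptor alpha chain (0.066), and Tspan13 (0.066). Il2ra stood at 25.2 to 25.7 CPM untreated and at 97.7, 37.6 and 55.9 CPM with tamoxifen, the same order of tamoxifen libraries as Tcf7. For Ikzf3 they were Ifitm1 (0.103) and the recombinase gene Rag1 (0.117), and for Satb1 Col1a2 (0.088) and Epb4.1l4b (0.149). The nearest to Ikzf2 were Atf7ip (0.012) and Sp1 (0.027), to Ikzf1 Fam175b and Phf20 (both 0.020), to Bcl11b Tmem82 (0.039) and Trappc6a (0.043), and to Bcl11a Slc18a1 (0.118) and Slain1 (0.132).

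Other genes of the same families were mostly scarce. Of 10 listed relatives 5 were tested, none rose in edgeR's test and 1 fell, and the median log2 change of the 5 was -0.34, against 0.00 over all genes. Without tamoxifen replicate 1 the number that fell was 2. Tcf7l1 and Tcf7l2, both higher with tamoxifen, had unadjusted p under 0.05 and did not pass after adjustment.

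Other transcription factors of lymphoid cells changed in both directions. Of 24 listed 18 were tested, 2 rose and 3 fell, with a median log2 change of 0.22. For this and every other list, the shares over all tested genes were 8.96% that rose and 8.24% that fell. Spib, an ETS factor of B cells and plasmacytoid dendritic cells, rose from 0.845, 1.06 and 0.594 CPM to 7.15, 11.7 and 14.3 CPM, by 3.73 on the log2 scale in edgeR's test, and passed whichever library was left out. Pou2af1, a B-cell coactivator that passed the count filter only through its tamoxifen libraries, also rose (1.85), but lost the call without any 1 of the untreated libraries or without tamoxifen replicate 1 or 3. Pou2f2, the partner it is known to bind, fell by 1.01 on the log2 scale, Zbtb16 fell by 1.14 and the receptor Notch1 fell by 0.41. Among those that fell, Zbtb16 lost the call without untreated replicate 1 or 2, and Notch1 without either of those or tamoxifen replicate 2 or 3. Gata3, the T-cell and innate lymphoid factor, stood at 2.09 to 3.30 CPM untreated and at 13.2, 2.37 and 4.65 CPM with tamoxifen, and did not pass.

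The partner proteins of these factors include co-repressors and, for TCF-LEF proteins, beta-catenin. Of 17 listed co-repressor genes, all tested, 1 rose and 3 fell, with a median log2 change of -0.07. The shares over all tested genes were 8.96% and 8.24%. Chd3, an alternative ATPase of the NuRD complex, rose from 18.0, 16.8 and 16.0 CPM to 59.9, 28.7 and 36.0 CPM (log2 1.29, edgeR adjusted p = 0.010). The co-repressors Ctbp1 (-0.37) and Ctbp2 (-0.38) and the NuRD subunit Mta2 (-0.34) fell, each losing the call without untreated replicate 1 or 2, among others for Ctbp1 and Mta2. Of 16 tested partners of TCF-LEF proteins (17 listed) 1 rose, Bcl9 (0.42), and 1 fell, Pygo2 (-0.38), both beta-catenin cofactors that lost the call without any 1 of the untreated libraries. Without tamoxifen replicate 1 the counts were 2 and 3. Beta-catenin itself, Ctnnb1, stood at 269 to 279 CPM untreated and at 294 to 343 CPM with tamoxifen, which did not pass (log2 0.21, edgeR adjusted p = 0.125).

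Among genes that TCF-LEF proteins are known to drive under Wnt signalling, 10 of 16 were tested, 1 rose and none fell in edgeR's test, also at an unadjusted p under 0.05, with a median log2 change of 0.11. Beside this list and the Notch list below, 8.96% of all tested genes rose and 8.24% fell. Nkd1, an inhibitor of the pathway, rose but was below 1 CPM in every library, passed the count filter only through tamoxifen libraries and lost the call on leaving out any library but tamoxifen replicate 1. Without that library 2 of the Wnt targets rose and 1 fell. Axin2, the commonest readout of the pathway, stood at 0.099 to 0.817 CPM untreated and at no more than 0.797 CPM with tamoxifen (edgeR adjusted p = 0.758). For Notch receptors and targets, 13 of 16 were tested, 1 rose and 1 fell, with a median log2 change of 0.25: Il2ra rose by 1.32 on the log2 scale and Dtx4 fell by 0.75. Il2ra lost the call without any 1 of the untreated libraries, and Dtx4 without untreated replicate 1. Without tamoxifen replicate 1, 2 genes of that list rose.

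**Figure D4:**
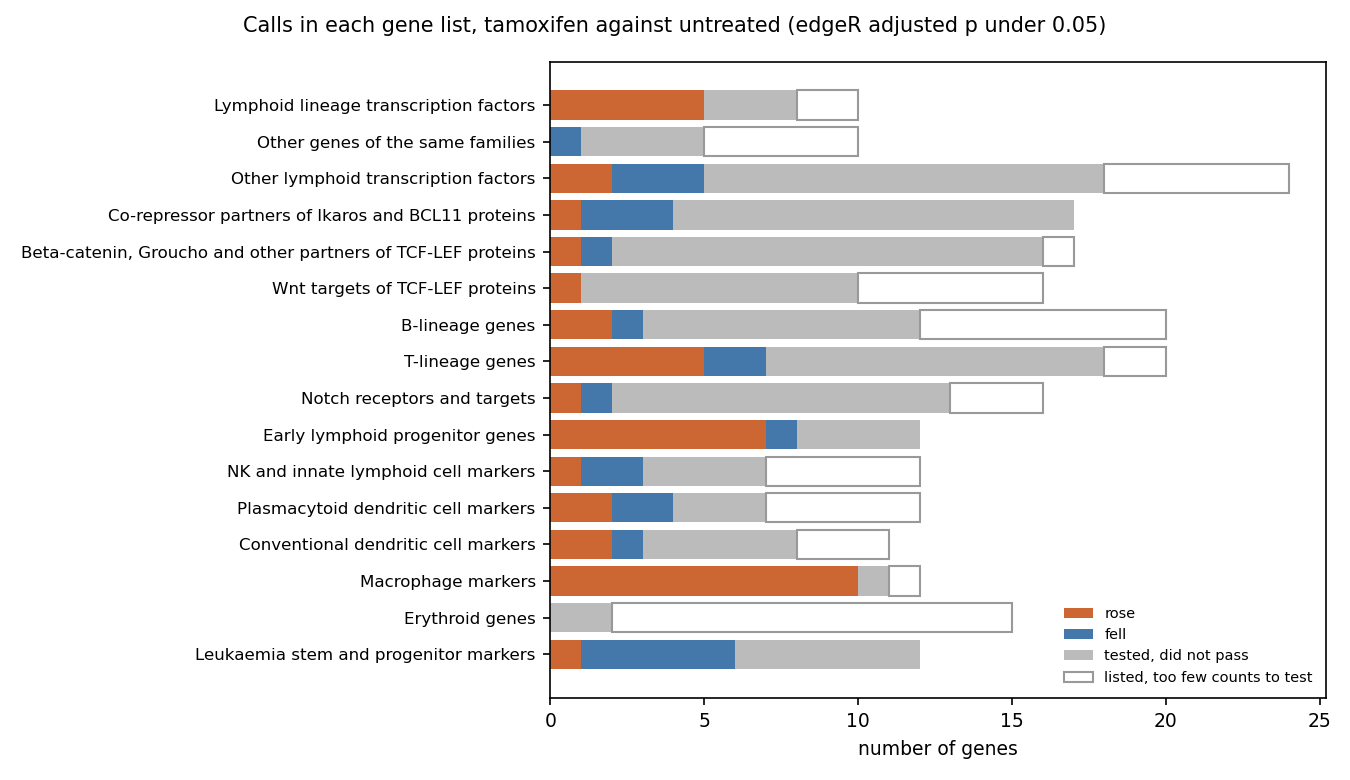
Number of genes of each list that rose, fell, were tested without passing, or had too few counts to be tested (edgeR adjusted p under 0.05). Macrophage markers (10 of 11 tested) and early lymphoid progenitor genes (7 of 12 tested) hold more that rose than any other list. Over all tested genes 8.96% rose and 8.24% fell.

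Of 12 early lymphoid progenitor genes in the tables, all tested, 7 rose and 1 fell, with a median log2 change of 1.30. Ltb, a lymphotoxin gene, rose from 2.88, 3.47 and 4.16 CPM to 96.2, 134 and 108 CPM. Ccr9, a homing receptor, rose by 2.27 on the log2 scale, and Il7r, the interleukin-7 receptor, rose from 2.88, 2.97 and 3.94 CPM to 12.6, 5.66 and 9.47 CPM. Ltb and Ccr9 passed whichever library was left out. The cytokine receptor Flt3 fell, from 79.1, 104.0 and 86.1 CPM to 38.5, 33.0 and 46.1 CPM (log2 -1.20). The count of 7 that rose was 6 without tamoxifen replicate 1, 4 without tamoxifen replicate 3, and 2, 3 and 3 without untreated replicates 1, 2 and 3. Il7r lost the call without untreated replicate 1 or 2 or tamoxifen replicate 3.

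Of 20 T-lineage genes 18 were tested, 5 rose (among them Lck, Cd5, Cd6 and Themis) and 2 fell (Cd28 and Ubash3a), with a median log2 change of 1.14. Lck, a kinase of the T-cell receptor, stood at 12.6, 13.3 and 13.1 CPM untreated and at 54.5, 20.1 and 31.4 CPM with tamoxifen. Its tamoxifen libraries, though not its untreated ones, had the same order as those of Tcf7. Cd28, a co-stimulatory receptor, fell from 4.08, 6.40 and 3.64 CPM to 1.30, 0.743 and 0.531 CPM (log2 -2.46) and passed whichever library was left out. Tamoxifen replicate 1 was the highest tamoxifen library for 15 of the 18. Without it 2 rose and 1 fell, without tamoxifen replicate 2 the counts were 9 and 1, and without tamoxifen replicate 3 they were 1 and 1. Leaving out untreated replicate 1, 2 or 3 left 0, 0 and 1 that rose and 1 that fell each time, by edgeR's test.

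The markers of mature T cells given here, Cd3e, Cd4, Cd8a and Cd2, were low, and they were picked after their values were seen. Cd3e stood at 1.34, 2.03 and 1.86 CPM untreated and at 6.05, 2.74 and 3.58 CPM with tamoxifen (edgeR adjusted p = 0.057), and Cd4 at 0.845, 1.23 and 0.854 CPM against 5.25, 0.650 and 1.06 CPM. The highest library for both was tamoxifen replicate 1, as for Satb1, Tcf7, Bcl11b, Bcl11a, Ikzf3 and Lef1. Cd8a and Cd2 were lowest in that library instead: Cd8a stood at 0.149, 0.339 and 0.446 CPM untreated and at 0.743 and 1.15 CPM in tamoxifen replicates 2 and 3, with replicate 1 below all of these. Cd2 stood at 0.348, 1.02 and 0.631 CPM untreated and at 0.050, 0.743 and 0.575 CPM with tamoxifen. Neither Cd8a nor Cd2 exceeded 1.15 CPM in any library. In tamoxifen replicate 1 both lay under 0.150 CPM, which is 3 counts there. Their place in that library therefore rests on very few reads, and no conclusion is drawn from it. Of the 18 tested T-lineage genes, tamoxifen replicate 1 was the highest tamoxifen library for 15 and the lowest for 1. No more than 1 of Cd8a and Cd2 was therefore among those tested. The part of T cells in the results for the factors described here was not tested.

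Of 20 B-lineage genes 12 were tested, 2 rose and 1 fell, with a median log2 change of 0.19. The shares over all tested genes were 8.96% and 8.24%. Ralgps2 rose by 0.75 on the log2 scale and Cd24a, a surface protein of immature B cells and many other cells, fell by 1.98. Blnk, an adaptor of the B-cell receptor, rose but from at most 0.099 CPM, to at most 1.35 CPM. It passed the count filter only through its tamoxifen libraries and lost the call without any 1 of the untreated libraries. Without tamoxifen replicate 1 the list's counts were 3 and 2. Its levels were mixed: Vpreb2 and Faim3 had no count in any library, while Cd79b stood at 26.2 to 47.9 CPM and Cnr2 at 28.9 to 36.8 CPM.

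Markers of macrophages were higher in the tamoxifen libraries, where 10 of 11 tested rose and all 11 had a higher mean, with a median log2 change of 4.28. Mrc1, the mannose receptor, went from 1.89, 0 and 0.446 CPM to 57.0, 6.31 and 18.1 CPM, and tamoxifen replicate 1 was the highest tamoxifen library for 10 of the 11. The count that rose was 9 without that library and 3 without untreated replicate 1 or 2. Their summed level was 208 to 310 CPM untreated and 507 to 860 CPM with tamoxifen. The part of macrophages in the changes of the 10 factors was not tested.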

How the data were processed

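RNA from 3 untreated and 3 tamoxifen libraries was analysed from 6 deposited tables of raw counts per gene, 1 library each. The submitters' processing notes name FastQC, TopHat2 2.1.0, featureCounts, DESeq2 and the mm9 genome, with no order. Annotation, strand setting and handling of multi-mapped reads: not given in the sources used here. Counts were fitted with edgeR 4.0.16 (R 4.3.3; TMM scaling, filterByExpr with a minimum count of 10, quasi-likelihood test on group, Benjamini-Hochberg adjustment over 12729 genes, threshold 0.05). CPM was computed over tested genes with TMM factors, and the SE came from the log2 change and F. Alternatives used other scalings, filters, DESeq2 1.42.0, limma 3.58.1 voom, a replicate block, a required fold of 1.5 and left-out libraries. The steps were tested on simulated data. The 10 genes and all lists were chosen with earlier results of these data known. From each list the text takes up to 4 genes with the smallest p that passed, and for each of the 10 genes with an average log2 CPM of at least 1 the 2 of most similar pattern. Pou2af1, Mta2, Themis, Ubash3a and genes given without a call (Gata3, Ctnnb1, Axin2, Tcf7l1, Tcf7l2, Cd3e, Cd4, Cd8a, Cd2, Cd79b, Cnr2, Kit, Cd34) were added after their values were seen. Values of some listed genes are not reported here.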

Additional observations from a re-analysis of the deposited data

How the results depend on the processing

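With the replicate number as a block, 3 of the 10 genes changed, all 3 rising, and 1792 genes did over the whole table; same-numbered libraries did not deviate together (correlations of 0.118, -0.115 and 0.106), so the numbers were not taken as pairs. Requiring more than 1.5-fold left 647 genes, 420 rising and 227 falling, and 1 of the 10 (Satb1); 64.9% of those calls were higher, against 52.1% in the main test. Leaving out 1 library at a time gave 1029 to 3249 genes, 586 to 1657 rising and 443 to 1592 falling, and 1 to 4 of the 10, all rising. The log2 change of Ikzf1 ranged from -0.11 to 0.0038 over the left-out libraries, positive only without tamoxifen replicate 1 (adjusted p = 0.979). The other scalings, filters, DESeq2 and limma voom gave 2066 to 2761 genes. Bcl11a also missed with RLE scaling (adjusted p = 0.0501), the stricter filter (0.0509) and voom (0.0654). None of the 10 fell in any of the settings run, DESeq2 and limma voom included. Lef1 could not be fitted with the stricter filter. Depth limits Lef1, Ebf1 and Pax5. The cause of these shifts was not tested.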

Other observations

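Markers of other lymphoid and dendritic cells differed within each list. Beside the counts below, 8.96% of all tested genes rose and 8.24% fell. Of 12 natural killer and innate lymphoid genes 7 were tested, 1 rose (Fasl) and 2 fell (Nkg7 and Klrk1), with Ncr1 at 0 in every library. Fasl lost the call on leaving out any library but tamoxifen replicate 2, and Klrk1 lost the call without untreated replicate 2 or tamoxifen replicate 2 or 3. Of 12 plasmacytoid dendritic genes 7 were tested, 2 rose (Ly6d and Ccr9) and 2 fell (Runx2 and Irf8), and Klk1 was at 0. Ly6d lost the call without any 1 of the untreated libraries, and Runx2 without untreated replicate 1 or tamoxifen replicate 2. Of 11 conventional dendritic genes 8 were tested, 2 rose (Ffar2, by 3.55 on the log2 scale, and Ccr7) and 1 fell (Flt3), with Ccr7 losing the call on leaving out any library but tamoxifen replicate 2. Only 2 of 15 erythroid genes could be tested, and neither passed edgeR's test, although 1 fell without tamoxifen replicate 1. Among 12 leukaemia stem and progenitor markers 1 rose (Fcgr2b) and 5 fell (2 and 7 without tamoxifen replicate 1), with Mpo, the myeloperoxidase gene, going from 4080, 4028 and 2940 CPM to 372, 112 and 75.7 CPM.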
